A study of Mus musculus with 2 samples.

Results

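The 9 genes described here encode transcription regulators that set the fibre type of skeletal muscle: Sox6, Tbx15, Eya4, Eya1, Six4 and Six5, which are counted here as the fast program, and Nfatc1, Nfatc3 and Prox1, which are counted as the slow program. They were chosen by name, for their textbook role, with earlier results of these data known, and are 9 of the 55536 annotated genes and of the 22028 protein-coding genes in the deposited tables. Their levels were read in gastrocnemius, the large calf muscle, of 2 female B6CASTF1/J mice aged 8 to 10 months, first-generation hybrids of a B6 and a CAST parent that carried no treatment. Each mouse gave 1 library of total RNA made from 300 ng with ribosomal RNA reduced, a kit that keeps the strand, and ERCC spike-ins. Replicate 1 is animal 1 of the labels and replicate 2 is animal 3. The labels list separate tissue samples under a single donor identifier, so that these are 2 animals rests on their description as animals 1 and 3. Both mice form a single group, so no comparison of conditions and no p-value exists, and errors are standard deviations over the 2 libraries (n = 2).

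Fast fibres contract quickly and rely largely on glycolysis, while slow fibres resist fatigue and rely on oxidative metabolism, and each type holds its own myosins, troponins and calcium pump. Six4 and Six5 encode sine oculis homeobox factors, a family that binds MEF3 sequences in promoters of fast muscle genes, and EYA proteins are the coactivators, with phosphatase activity, that this family recruits. SOX6 represses slow muscle genes in fast fibres, and TBX15 is a T-box factor found in fast glycolytic fibres of the mouse. On the slow side, nerve activity raises calcium, calcineurin removes phosphate from NFATc proteins, and these move to the nucleus, while PROX1 is a homeodomain factor that promotes slow muscle genes.

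The libraries held 42714567 expected counts in replicate 1 and 43421652 in replicate 2. Of these, 42605802 and 43301418 fell on annotated genes, and the 9 genes took 0.0554% and 0.0602% of the counts on genes. A gene with no reads at this depth could still have had 3 counts, which is a CPM of 0.0702 (replicate 1) or 0.0691 (replicate 2) and covers counting error only. Levels are in TPM, a transcript abundance that accounts for transcript length and depth and so allows genes to be compared within a library. The 7SL RNAs held 27.0% of all TPM in replicate 1 and 33.6% in replicate 2, so TPM values of most other genes were lower in replicate 2 (median log2 ratio of TPM, replicate 1 over replicate 2, 0.17). All 5 muscle fibre markers (Acta1, Ckm, Ttn, Des and Mb) were detected, with summed levels of 51734 TPM in replicate 1 and 44579 TPM in replicate 2. The tissue is a mixture of cells, so fewer cells of a type and less RNA per cell cannot be told apart.

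Of the 9 regulators 7 were detected, meaning at 1 TPM or more in both libraries, against a background of 44.0% of all protein-coding genes. Six5 and Prox1 were the exceptions, and both had counts well above the floor. Both passed 1 TPM in both libraries when TPM was rescaled over nuclear protein-coding genes, which takes 7SL RNA out of the total. The levels spanned about 2 orders of magnitude, and the fast program held both the highest mean, that of Sox6, and the lowest, that of Six5, which lay within 1 SD of Prox1. With complete reading frames only, described further on, Tbx15 and not Sox6 was the highest.

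Sox6 stood highest, with 86.8 TPM in replicate 1 and 79.3 TPM in replicate 2, a mean of 83.1 ± 5.30 TPM (SD, n = 2). This level exceeded that of 93.4% of detected protein-coding genes, whose median was 8.18 TPM. Tbx15 followed with 58.2 and 60.5 TPM, a mean of 59.4 ± 1.64 TPM, above 90.6% of detected protein-coding genes. Sox6 exceeded Tbx15 in both libraries, by 1.40 ± 0.128 times, although that order turned round when the transcripts were restricted to complete reading frames, as described further on.

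The homeodomain genes and their EYA partners lay lower. Eya4 was the highest of them, with 14.9 TPM in replicate 1 and 17.0 TPM in replicate 2 (16.0 ± 1.46 TPM). Eya1 had 10.7 and 9.93 TPM (10.3 ± 0.566 TPM), and the homeodomain factor Six4 had 7.80 and 7.54 TPM (7.67 ± 0.184 TPM). Eya4 thus exceeded Eya1 by 1.39 times in replicate 1 and 1.71 times in replicate 2, and it exceeded Six4 by 1.92 and 2.26 times. Six5, the other homeodomain gene of the fast program, had 0.880 TPM in replicate 1 and 0.600 TPM in replicate 2 (0.740 ± 0.198 TPM), from 72 and 56 reads with exact Poisson 95% intervals of 56.3 to 90.7 and 42.3 to 72.7. Six4 therefore lay 8.86 times above Six5 in replicate 1 and 12.6 times above it in replicate 2. Among all protein-coding genes, detected or not, Six5 exceeded 52.2%.

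Of the slow program, Nfatc1 had 15.2 TPM in replicate 1 and 13.7 TPM in replicate 2 (14.4 ± 1.05 TPM). Nfatc3, a second calcineurin target, had 13.1 and 9.76 TPM (11.4 ± 2.35 TPM). Nfatc1 was higher in both libraries, by 1.28 ± 0.173 times, but the ranges of 1 SD around their means overlapped. Prox1 was far below both, with 0.820 TPM in replicate 1 and 0.850 TPM in replicate 2 (0.835 ± 0.0212 TPM), from 145 and 192 reads with Poisson intervals of 122 to 171 and 166 to 221. Sox6 exceeded Prox1 by 106 times in replicate 1 and by 93.3 times in replicate 2.

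**Figure D1:**
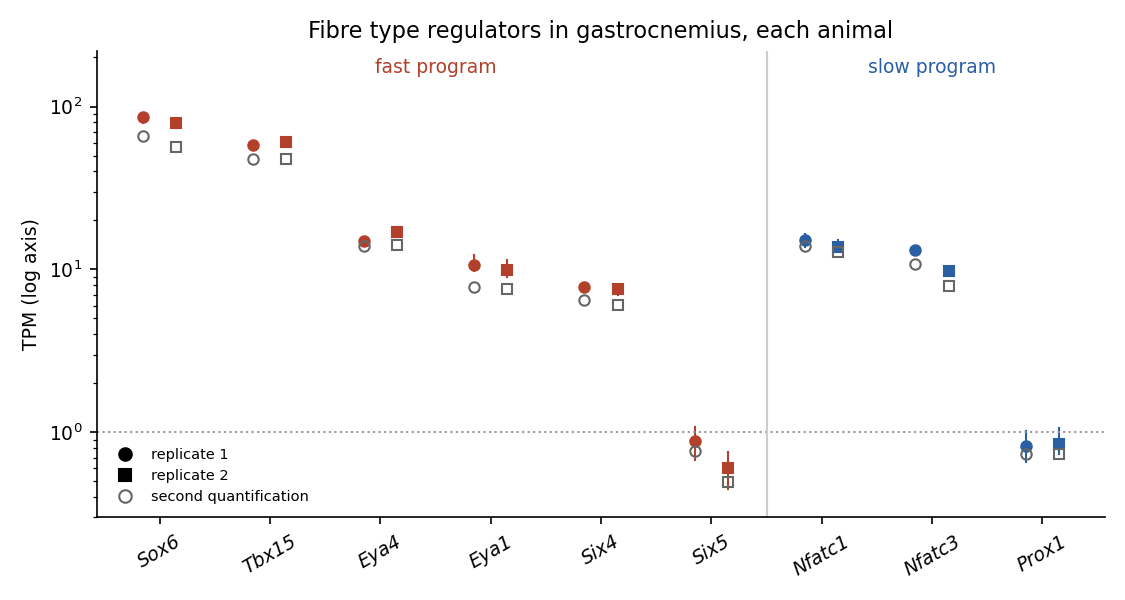
Levels of the 9 regulators in TPM on a log axis, the fast program on the left and the slow program on the right; filled circles are replicate 1, filled squares replicate 2, bars the deposited credibility intervals of TPM, open symbols the second quantification, and the dotted line 1 TPM. Sox6 and Tbx15 stand apart at the top, Six5 and Prox1 lie below 1 TPM, and the other 5 genes lie between 7.54 and 17.0 TPM.

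In the order of mean levels, Sox6, Tbx15, Eya4, Nfatc1, Nfatc3, Eya1, Six4, Prox1 and Six5, only some neighbours differed beyond their spread. Sox6 over Tbx15, Tbx15 over Eya4, Eya1 over Six4 and Six4 over Prox1 were steps larger than the SDs and held in both libraries. Eya4 and Nfatc1, Nfatc1 and Nfatc3, Nfatc3 and Eya1, and Prox1 and Six5 overlapped within 1 SD. Of these overlapping pairs, Nfatc1 over Nfatc3 was in the same order in both libraries, and the other pairs were in that order in 1 of the 2 libraries. The middle of the order, with Eya4, Nfatc1, Nfatc3 and Eya1, therefore mixed fast and slow regulators, and neighbours within it overlapped within 1 SD. Genes farther apart in it could differ, as Eya4 lay above Eya1 in both libraries. By the second quantification, each pair of neighbours in this middle part was in the same order in both libraries.

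Summed over genes, the fast program exceeded the slow program. In replicate 1 the 6 fast regulators held 179 TPM and the 3 slow regulators 29.1 TPM, a ratio of 6.16. In replicate 2 they held 175 TPM and 24.3 TPM, a ratio of 7.19, so that the mean ratio was 6.68 ± 0.727. The ratio is one of sums over 6 and 3 genes, and it rested on Sox6 and Tbx15, which held 69.6% of the summed level of all 9 genes in replicate 1 and 70.2% in replicate 2. Without these genes the other 4, Eya4, Eya1, Six4 and Six5, held 34.4 TPM, against 29.1 TPM in the slow program in replicate 1, and 35.1 TPM against 24.3 TPM in replicate 2, a ratio of 1.31 ± 0.185. The ratio of the median fast to the median slow regulator was 0.981 in replicate 1 and 1.38 in replicate 2 (1.18 ± 0.283), so the direction differed between the libraries. Without Nfatc3, the summed ratio was 11.6 ± 0.573.

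The contractile genes that these programs act on were more unequal than the regulators. A list of 12 fast contractile and glycolytic genes summed to 113962 TPM and a list of 11 slow genes to 2129 TPM in replicate 1, a ratio of 53.5. In replicate 2 the sums were 101317 TPM and 2239 TPM, a ratio of 45.3 (49.4 ± 5.84). The 3 highest fast targets were Tnnt3, fast troponin T, with 14673 TPM on average, Mylpf, the fast regulatory light chain, with 14169 TPM, and the glycolytic aldolase Aldoa with 13982 TPM. The 3 highest slow targets were Myl2, the slow regulatory light chain, with 420 TPM, Myl3, the slow essential light chain, with 336 TPM, and the slow myosin Myh7 with 319 TPM. Of the 11 slow targets 10 were detected, and Myh7b, at 0.910 TPM in replicate 1 and 1.17 TPM in replicate 2, was not.

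Total RNA also holds unspliced transcripts, and some annotated transcripts are partial, so the share of each gene in transcripts with a complete annotated reading frame was compared. An incomplete frame is a property of the annotation and does not show broken RNA in the sample. The 9 genes have 56 annotated transcripts, from 16 for Sox6 to 1 for Six5. In 7 of the 9 (Tbx15, Eya4, Six4, Six5, Nfatc1, Nfatc3 and Prox1), complete frames held at least 94.0% of the gene's TPM in either library by the first quantification. By the second, Nfatc1 had 84.7% in replicate 1 and 85.8% in replicate 2, and Eya4 had 89.0% and 94.2%. Sox6 and Eya1 were lower.

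For Sox6, complete reading frames held 42.0% of the TPM in replicate 1 and 45.0% in replicate 2, but 85.8% and 87.2% of the reads. The gap lay in annotated transcripts shorter than the main one, some of them annotated only in part, which need fewer reads for a given TPM. Sox6-207, a 331-base annotated transcript with an incomplete frame, held 23.8% of the gene's TPM in replicate 1 and 16.4% in replicate 2, on 134 and 96.4 estimated reads. Sox6-209, a 2258-base transcript with a retained intron, held 20.7% and 19.4%, on 1087 and 1066 estimated reads. The second quantification placed 15.9% and 11.8% on Sox6-207 and 7.94% and 7.92% on Sox6-209. It put 15.2% and 12.3% on Sox6-215, another noncoding transcript, which had 1.32% and 0.990% by the first.

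The main transcript with a complete frame was Sox6-210, which is 8668 bases long and encodes 786 residues. It held 39.2% of Sox6 TPM in replicate 1 and 43.2% in replicate 2, and 39.5% and 43.7% by the second quantification. A form of 827 residues held 1.37% and 1.76%, against 8.02% and 7.95% by the second quantification. Counting complete frames only, Sox6 had 36.5 TPM in replicate 1 and 35.7 TPM in replicate 2, a mean of 36.1 ± 0.552 TPM. Tbx15, with a single complete transcript, Tbx15-201 of 602 residues at 98.7% and 96.7%, had 57.5 and 58.6 TPM by the same measure. With all protein-coding transcripts, complete or not, Sox6 was at 1.05 times Tbx15 in replicate 1 and 0.928 times in replicate 2. With complete frames Tbx15 was the higher gene in both libraries, with Sox6 at 0.634 times its level in replicate 1 and 0.609 times in replicate 2. The summed ratio of fast to slow regulators was 4.86 ± 0.596 with complete frames, against 6.68 ± 0.727 with all transcripts.

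**Figure D2:**
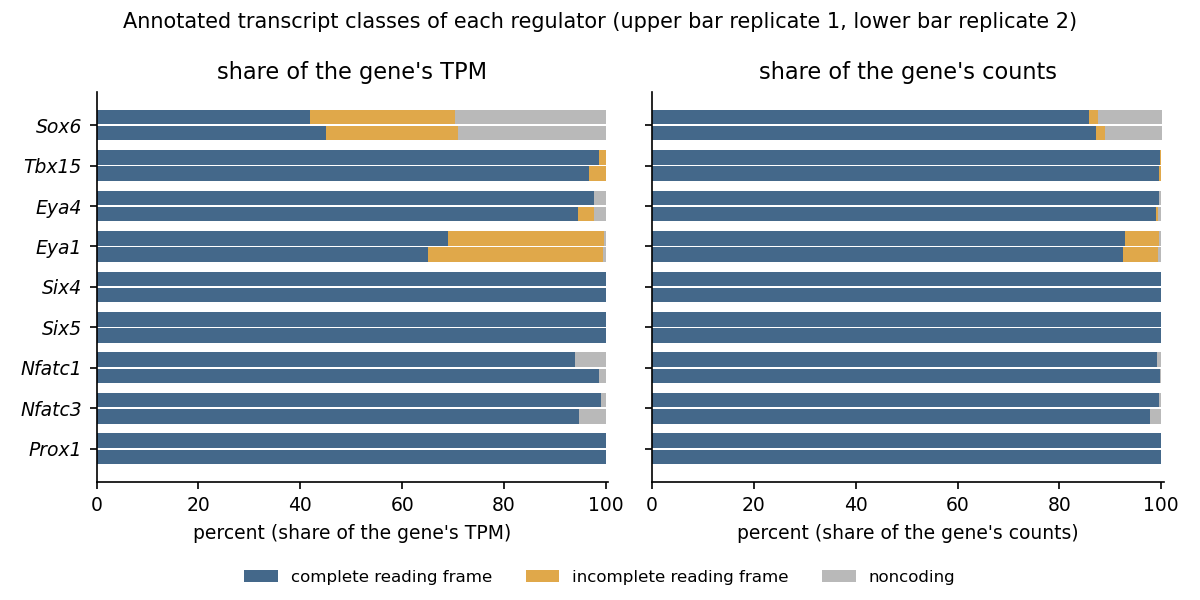
Share of each gene, in percent, held by transcripts with a complete reading frame, an incomplete reading frame or no reading frame, as a share of the gene's TPM on the left and of its expected counts on the right; the upper bar of each pair is replicate 1 and the lower bar replicate 2. Sox6 has 42.0% and 45.0% of its TPM in complete frames, but 85.8% and 87.2% of its counts.

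Eya1 was split in a similar way to a lesser degree. Complete frames held 69.0% of its TPM in replicate 1 and 65.1% in replicate 2, and 92.8% and 92.4% of its reads. The 725-base transcript Eya1-207, which has an incomplete frame, held 20.4% and 16.8% by the first quantification, but 4.81% and 0% by the second. The main transcript, Eya1-201, held 41.6% and 35.3%, and together with Eya1-209 it gave a protein of 591 residues at 58.5% and 46.4%. A 587-residue form, Eya1-203, held 10.5% in replicate 1 and 18.7% in replicate 2. With complete frames only, Eya1 had 7.41 TPM in replicate 1 and 6.46 TPM in replicate 2, below Six4 in both libraries, so that the order of these genes also turned round.

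Eya4 transcripts encode a pair of protein lengths. Transcripts for 616 residues, led by Eya4-202, held 60.2% of the gene in both libraries, and Eya4-206, for 639 residues, held 37.5% in replicate 1 and 34.2% in replicate 2. The second quantification gave 51.9% and 57.0% for the shorter and 37.1% and 37.2% for the longer form. Six4 was almost wholly Six4-201, which encodes 775 residues, at 98.1% and 98.4%, and the 518-residue Six4-202 held 1.89% and 1.60%. Six5 has a single annotated transcript, which encodes 719 residues.

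Nfatc1 transcripts end their reading frames at 3 places, and mouse NFATc1 isoforms are known to differ in the length of the part beyond the DNA-binding domain. The short forms of 703 or 717 residues held 15.9% of the gene's TPM in replicate 1 and 20.6% in replicate 2. The middle forms of 813 or 827 residues held 45.9% and 37.0%, and the long forms of 925 or 939 residues 32.2% and 41.1%. The middle forms were thus the largest group in replicate 1 and the long forms in replicate 2, and the second quantification gave the same pair of leaders, with 37.2% and 24.6% in the middle forms and 30.3% and 40.2% in the long forms. The short forms were the smallest of the 3 groups in each library and each quantification.

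The start site of Nfatc1 differed more between the quantifications than its end did. Transcripts from the upstream start held 46.8% in replicate 1 and 50.5% in replicate 2, and those from the downstream start 47.2% and 48.2%. By the second quantification the upstream start held 61.5% and 64.8%, and the downstream start 23.2% and 21%. A noncoding transcript, Nfatc1-207, took 5.96% and 1.30% by the first quantification and 15.3% and 14.2% by the second. Of the 8 regulators with several annotated transcripts, all 8 had the same main transcript in both libraries by the first quantification, against 86.4% of all such genes compared. In both libraries and both quantifications 7 of the 8 did, against 69.1%, and Nfatc1 was the exception.

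**Figure D3:**
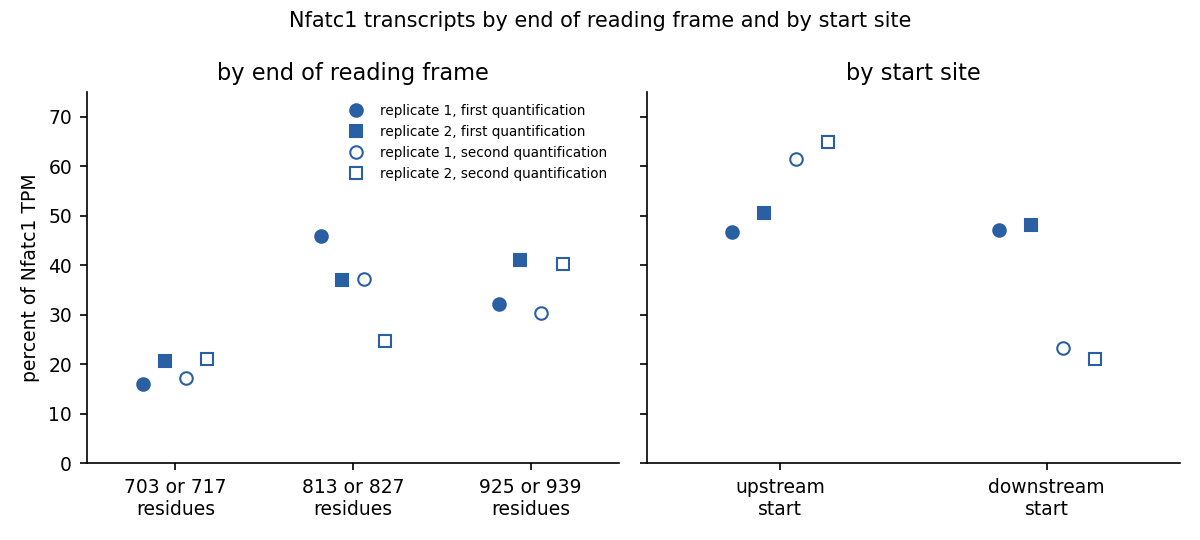
Share of Nfatc1 TPM, in percent, by the end of the reading frame on the left and by the start site on the right; circles are replicate 1 and squares replicate 2, filled for the first quantification and open for the second. The middle and long forms change places between the libraries (45.9% and 37.0% against 32.2% and 41.1%), and the shares of the start sites differ between the quantifications.

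Nfatc3 was mostly Nfatc3-201, which encodes 1076 residues, at 82.9% in replicate 1 and 78.2% in replicate 2, and Nfatc3-202, for 1060 residues from another start, held 16.1% and 16.6%. All 3 Prox1 transcripts encode the same 737 residues, and they differ in length (7913, 3285 and 3144 bases for Prox1-202, Prox1-201 and Prox1-203) as well as in their start. Prox1-202 held 67.3% and 82.3%, and Prox1-201 held 32.7% and 13.5%, from 145 and 192 reads of the whole gene. The second quantification kept that order, with 53.9% and 73.6% for Prox1-202 and 46.1% and 26.4% for Prox1-201. The transcript with the larger share was thus the same in both libraries and both quantifications, and since these transcripts also differ beyond their start, the shares are not a measure of start use alone.

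Because Sox6, Prox1 and Nfatc3 each use several starts, the DNA at a much used and a little used start of each gene is shown, as the RefSeq promoter tables for GRCm38.p6 give it. Each window runs 5′ to 3′ on the gene's own strand, from 250 bases before to 50 bases after the start, and capitals mark CG dinucleotides. For Sox6, on the minus strand, the main start is chr7:116030998-116031297 and the little used start chr7:115846091-115846390. For Prox1, also on the minus strand, they are chr1:190170778-190171077 and chr1:190169466-190169765. For Nfatc3, on the plus strand, they are chr8:106059340-106059639 and chr8:106058568-106058867.
Sox6 main start: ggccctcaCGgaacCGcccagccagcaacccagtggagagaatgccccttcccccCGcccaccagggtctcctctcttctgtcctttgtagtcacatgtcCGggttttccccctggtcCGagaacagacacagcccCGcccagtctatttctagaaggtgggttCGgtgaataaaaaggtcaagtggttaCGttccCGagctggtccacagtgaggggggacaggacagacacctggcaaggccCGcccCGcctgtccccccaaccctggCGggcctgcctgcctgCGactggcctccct
Sox6 little used start: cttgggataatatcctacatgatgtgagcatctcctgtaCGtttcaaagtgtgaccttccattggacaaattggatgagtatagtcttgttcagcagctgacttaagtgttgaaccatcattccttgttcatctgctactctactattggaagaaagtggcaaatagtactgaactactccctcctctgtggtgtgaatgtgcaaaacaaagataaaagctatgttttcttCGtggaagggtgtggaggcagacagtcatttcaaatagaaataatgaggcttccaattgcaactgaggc
Prox1 main start: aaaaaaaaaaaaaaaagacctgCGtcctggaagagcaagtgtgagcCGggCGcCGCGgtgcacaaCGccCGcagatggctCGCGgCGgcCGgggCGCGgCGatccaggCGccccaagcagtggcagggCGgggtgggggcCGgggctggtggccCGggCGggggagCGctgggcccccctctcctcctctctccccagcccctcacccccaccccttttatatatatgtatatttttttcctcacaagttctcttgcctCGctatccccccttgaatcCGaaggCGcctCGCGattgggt
Prox1 second start: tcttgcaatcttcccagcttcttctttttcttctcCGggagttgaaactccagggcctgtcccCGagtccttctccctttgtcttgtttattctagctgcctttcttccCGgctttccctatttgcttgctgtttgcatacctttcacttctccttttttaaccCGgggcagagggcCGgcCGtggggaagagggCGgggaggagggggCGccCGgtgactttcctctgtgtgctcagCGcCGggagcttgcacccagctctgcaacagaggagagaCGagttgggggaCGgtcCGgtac
Nfatc3 main start: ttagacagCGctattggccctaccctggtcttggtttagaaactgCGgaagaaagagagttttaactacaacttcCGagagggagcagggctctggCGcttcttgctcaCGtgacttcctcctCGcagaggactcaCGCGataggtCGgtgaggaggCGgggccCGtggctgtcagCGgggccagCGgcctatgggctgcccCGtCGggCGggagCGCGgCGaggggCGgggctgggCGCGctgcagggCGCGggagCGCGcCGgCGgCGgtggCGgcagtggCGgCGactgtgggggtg
Nfatc3 second start: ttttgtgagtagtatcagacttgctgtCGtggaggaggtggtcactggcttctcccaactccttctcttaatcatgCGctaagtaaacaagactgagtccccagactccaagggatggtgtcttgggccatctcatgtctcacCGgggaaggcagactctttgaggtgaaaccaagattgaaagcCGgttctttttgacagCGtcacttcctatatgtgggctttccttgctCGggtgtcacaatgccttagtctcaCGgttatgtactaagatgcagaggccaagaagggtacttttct

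In these 3 genes the start with the larger share of transcripts had the window with more CG dinucleotides. The Sox6 main start, which served 39.2% of the gene's TPM in replicate 1 and 43.2% in replicate 2, had 13 CG dinucleotides and 63.3% G or C, and the little used start, with 1.63% and 2.28%, had 2 and 41.0%. The Prox1 main start, with 67.3% and 86.5% of the gene, had 25 CG dinucleotides, and its second start, with 32.7% and 13.5%, had 14. The Nfatc3 main start, with 82.9% and 82.4%, had 32, and its second start, with 16.1% and 16.6%, had 7. These shares are from the first quantification. By the second, the little used Sox6 start held 8.23% and 8.54%, against 41.5% and 43.7% at the main start. The Prox1 starts then held 53.9% and 73.6% (main) against 46.1% and 26.4%, and those of Nfatc3 77.1% and 75.7% (main) against 21.6% and 23.0%. The median of all 32851 windows in the tables was 7 CG dinucleotides and 52.7% G or C, and the upper quartile 20. The other 4 Sox6 windows held 11, 2, 4 and 2, and the one with 11 was also little used, at 2.04% and 0.410% (3.84% and 6.59% by the second quantification). In Six4, a window with no paired transcript held 16 CG dinucleotides and the overlapping window paired with 100% of the gene held 15. The unpaired start lay farther from the annotated starts than the tolerance given below, so use of these 2 starts was not told apart. RefSeq starts were paired with annotated transcripts that begin within 150 bases.

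Short motifs were then searched on both strands of all windows, 15 of which belong to 6 of the 9 genes (Sox6, Eya4, Six4, Six5, Prox1 and Nfatc3). The MEF3 letters TCAGGTT, which Six4 and its relatives bind, occurred in 2 of the 15 windows and in 4.07% of all windows. These 2 windows were the Sox6-205 start, which served no measured transcript, and the Six4 window with no paired transcript. The Six4 window was unpaired because its start lay more than 150 bases from the annotated starts, so its use was not measured. The 2 windows of Six4 overlap, as do the 2 of Eya4. The NFAT core GGAAA occurred in 13 of 15 and in 61.3% of all, and the E-box CANNTG, bound by MyoD and its relatives, in 10 of 15 and 72.3%. The SOX letters AACAAT occurred in 1 of 15 and in 10.7% of all, the T-box letters GGTGTGA in 1 of 15 and 3.98%, and TATAAA in 3 of 15 and 13.6%. Among the target genes in the tables, the SOX letters lay in 4 of 14 windows of the slow targets (28.6%), those of Myh7, Myl3 and Tpm3, and in 0 of 12 windows of the fast targets. The MEF3 letters and the T-box letters lay in 0 of 12 windows of the fast targets and in 0 of 14 of the slow targets. The NFAT core lay in 9 of 12 fast and 11 of 14 slow target windows, the E-box in 10 of 12 and 14 of 14, and TATAAA in 3 of 12 and 2 of 14. These matches describe letters in a window and show no binding.

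The levels of the 9 regulators differed little between the animals. Between-animal ratios were scaled by TMM, which sets the typical gene to no difference, and are given as log2 of replicate 1 over replicate 2 with a 95% interval that covers counting error only. None of the 9 was 2-fold apart or more, where 154 of 11125 genes with a mean count of at least 50 were (1.38%). The median absolute log2 ratio of the 9 was 0.21, against 0.12 over all genes compared, a median of 1.09-fold. By this scaling 2 of the 9 were higher in replicate 1 and 7 in replicate 2, but with spike-in scaling the split was 5 against 4, and that scaling moves the median of all genes to 0.12.

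Eya4 and Nfatc3 were the members whose deposited credibility intervals of TPM did not overlap between the animals. At 2 of 9, this was close to the share over all genes compared (22.4%), so it does not set the 9 apart. These intervals were not corrected for the lower TPM of most genes in replicate 2 (median log2 ratio of TPM 0.17). The Eya4 interval ran from 14.1 to 15.8 TPM in replicate 1 and from 16.0 to 18 TPM in replicate 2, with 1765 and 2237 reads, a log2 ratio of −0.33 (−0.42 to −0.23) by TMM and −0.20 by spike-ins. The Nfatc3 interval ran from 12.4 to 13.7 TPM in replicate 1 and from 9.15 to 10.3 TPM in replicate 2, with 2015 and 1669 reads, a log2 ratio of 0.29 (0.19 to 0.38) by TMM and 0.42 by spike-ins. Eya4 was thus the higher in replicate 2 and Nfatc3 in replicate 1 under both scalings. With 1 library on each side, these are differences between libraries.

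Sox6, with 9968 and 10979 reads, had a log2 ratio of −0.12 (−0.16 to −0.08) by TMM and 0.01 by spike-ins. Tbx15, with 5602 and 6559 reads, had −0.21 (−0.26 to −0.16) and −0.08. Eya1, Six4 and Nfatc1 had −0.05, −0.13 and −0.09 by TMM, and 0.08, 0.00 and 0.04 by spike-ins, so the sign of Eya1 and Nfatc1, like that of Sox6, depended on the scaling, and Six4 came to 0.00 by spike-ins. The 2 low genes had the widest intervals, from −0.16 to 0.90 for Six5 at 0.37 and from −0.71 to −0.07 for Prox1 at −0.38. Prox1, at 1.31-fold, and Six5, at 1.29-fold, were the farthest apart of the 9, and 86.9% and 85.7% of all genes compared were closer.

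**Figure D4:**
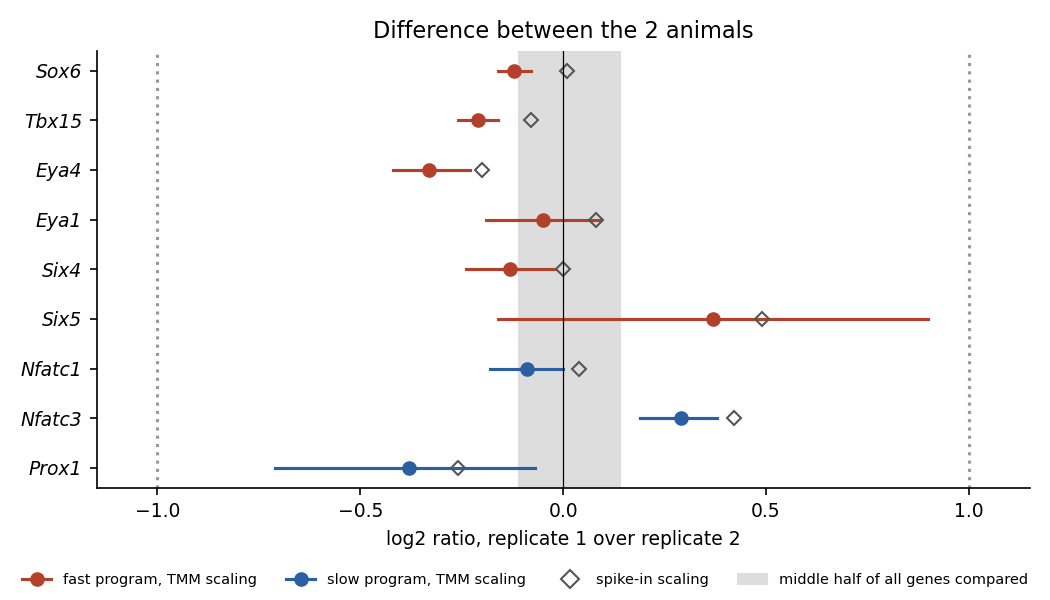
Log2 ratio of replicate 1 over replicate 2 for each regulator; circles are scaled by TMM, with bars for the 95% counting interval, diamonds are scaled to the spike-ins, the grey band spans the lower to the upper quartile of all genes compared (−0.11 to 0.14), and dotted lines mark a 2-fold difference. No regulator reaches a dotted line, and 7 of the 9 lie outside the band, with Prox1 and Six5 the farthest.

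The contractile targets also differed slightly between the animals. All 11 slow targets were higher in replicate 2 by TMM, with a median log2 ratio of −0.29 (−0.17 by spike-ins), and 7 of 12 fast targets were higher in replicate 1, with a median of 0.01 (0.14 by spike-ins); none of either list was 2-fold apart. Of the Schwann cell markers, Mbp had 20.1 TPM in replicate 1 and 3.20 TPM in replicate 2, a log2 ratio of 2.19 by TMM, and Prx had 4.52 and 0.940 TPM, a log2 ratio of 2.10. Sox10 had 50 reads in replicate 1 and 7 reads in replicate 2. The 6 fibroblast markers summed to 148 and 106 TPM, and all 6 were higher in replicate 1. The part of these cells in the ratio of Nfatc3, or of any other of the 9, was not tested.

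The relatives of the 9 genes were mostly low. Of 15 paralogs and cofactors 8 were detected, with summed levels of 34.5 TPM in replicate 1 and 35.0 TPM in replicate 2. Six2, another sine oculis homeobox gene, led with 9.41 and 11.4 TPM (10.4 ± 1.40 TPM), above Six4 in both libraries, and Six3 and Six6 had no reads. Nfat5, an NFAT relative that does not depend on calcineurin, had 6.57 and 6.71 TPM, and Eya3 had 5.58 and 4.57 TPM. Nfatc2 had 2.53 TPM in replicate 1 and 4.17 TPM in replicate 2, from 329 and 705 reads, and was the 1 gene of the list at least 2-fold apart, at a log2 ratio of −1.08 by TMM and −0.95 by spike-ins.

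Sox13 had 3.33 TPM in replicate 1 and 1.65 TPM in replicate 2, Tbx1 had 1.39 and 1.36 TPM, Prox2 had 1.25 and 1.37 TPM, and Dach1, a cofactor that works with the homeodomain and EYA proteins, had 1.14 and 1.19 TPM. Of the other SoxD genes, Sox13 and Sox5, Sox5 was the lower, at 0.420 TPM in both libraries, 198 ± 12.6 times below Sox6. Tbx18, a close relative of Tbx15, lay at 0.120 and 0.180 TPM, 485 and 336 times below it. In the SoxD and T-box families 1 gene thus carried nearly all of the transcript measured among the paralogs listed, while the NFAT family was spread over Nfatc1, Nfatc3, Nfat5 and Nfatc2.

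Other regulators of either program had median levels of 35.8 TPM (fast) and 31.0 TPM (slow), against 11.5 TPM for the 9. All 9 other fast regulators were detected, led by Smarcd3, a chromatin remodelling subunit, at 89.1 ± 5.14 TPM, the large MAF factor Maf at 58.9 ± 6.15 TPM and the nuclear receptor Nr4a1 at 51.8 ± 4.62 TPM. All 8 other slow regulators were detected as well, led by the MADS-box factor Mef2c at 188 ± 17.8 TPM, Tead1 at 81.1 ± 4.01 TPM and Mef2d at 73.2 ± 7.79 TPM. They summed to 334 TPM (fast) and 460 TPM (slow) in replicate 1, and to 287 TPM (fast) and 410 TPM (slow) in replicate 2. In these lists, which leave out the 9, the slow sum was thus the larger, opposite to the summed ratio of the 9. Mef2c alone held 201 TPM of the slow sum in replicate 1 and 176 TPM in replicate 2, and by the medians the fast list was the higher. Neither list had a gene 2-fold apart between the animals.

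A list of genes for calcineurin subunits, calcineurin inhibitors and NFAT kinases, together with Homer2, was also read. All 9 genes of this list were detected and summed to 491 TPM in replicate 1 and 442 TPM in replicate 2. The slow program of the 9 regulators summed to 29.1 and 24.3 TPM. Ppp3ca and Ppp3cb, the catalytic subunits of calcineurin on the list, had 90.0 ± 8.51 and 80.6 ± 4.91 TPM, and Csnk1a1, a kinase that phosphorylates NFAT, had 86.6 ± 5.76 TPM. Rcan1, a calcineurin inhibitor with a transcript that NFAT itself induces, had 36.5 and 34.9 TPM. Transcript levels give no measure of calcineurin activity or of NFAT in the nucleus.

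**Figure D5:**
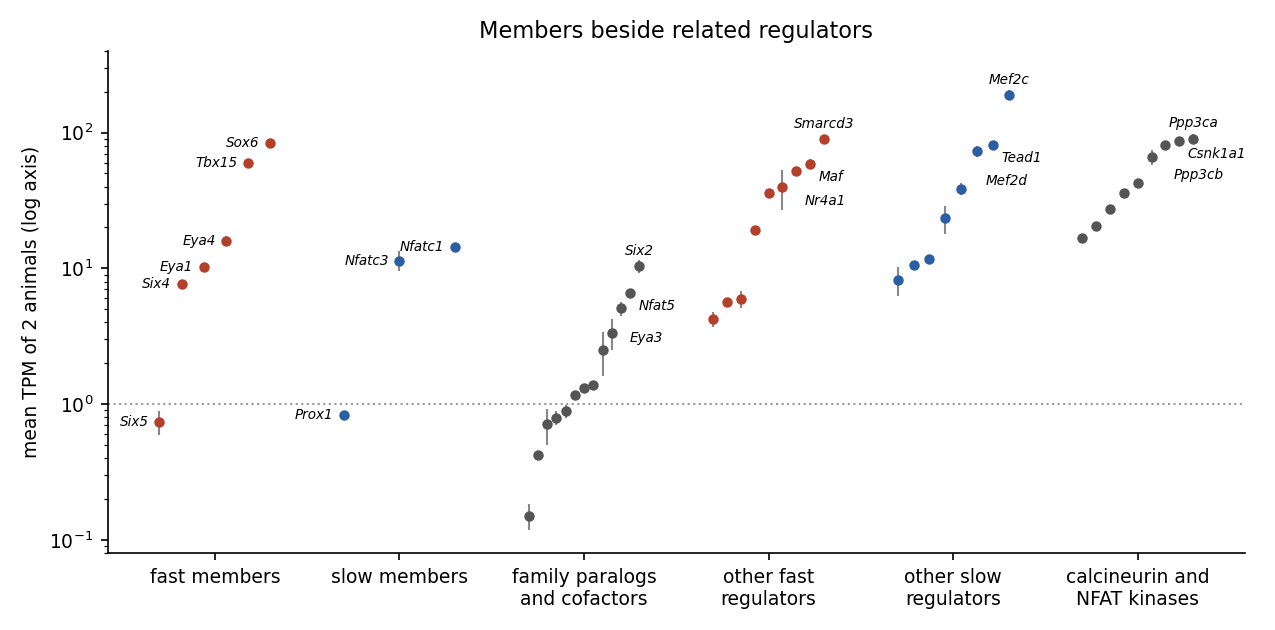
Mean TPM of the 2 animals on a log axis for the 9 regulators and for 4 lists of related genes; each point is a gene, the grey line joins its values in the animals, genes are ordered by level within a list, and the dotted line marks 1 TPM. Genes with a mean of 0.05 TPM or less are not drawn. Sox6 and Tbx15 lie among the leading genes of the other lists, and the paralogs lie below Eya4.

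Among the 41 genes of these 4 lists, the gene with the most similar level to each regulator in both libraries was found by the distance between log2(TPM + 0.01) values. Sox6 was closest to Tead1 (distance 0.05), with 83.9 and 78.3 TPM, and Eya1 to the nuclear receptor Esrrg (0.04), with 11.0 and 10.1 TPM. Tbx15 was closest to Maf (0.19), and Eya4 (0.14) and Nfatc1 (0.33) were both closest to Rcan2, another calcineurin inhibitor, with 16.4 and 17.0 TPM. Nfatc3 was closest to Ppard (0.24), Six4 to Nfat5 (0.30), Prox1 to Nfatc4 (0.25) and Six5 to Eya2 (0.24). Over 2 libraries this measures likeness of level only.

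Some of the regulators are also known from cells other than muscle fibres, so markers of these cells were read. PROX1 marks lymphatic endothelium, and 2 of the 5 lymphatic markers were detected, with summed levels of 7.09 TPM in replicate 1 and 6.18 TPM in replicate 2. Lyve1 had 0.600 and 0.470 TPM, Flt4 1.28 and 0.850 TPM, Pdpn 1.36 and 1.21 TPM, Ccl21a 2.48 and 3.07 TPM and Reln 1.37 and 0.580 TPM. None of these markers was at 0, and Prox1 had 0.820 and 0.850 TPM. The part of lymphatic endothelium in the Prox1 level was not tested.

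NFATc proteins also act in endothelium and lymphocytes, and the homeodomain and EYA proteins in muscle stem cells. The 6 endothelial markers were all detected and summed to 56.9 TPM in replicate 1 and 46.8 TPM in replicate 2. Of 6 T and B cell markers none was detected, their sums were 0.170 and 0.160 TPM, and Cd8a was at 0 in both libraries. Of 5 satellite cell markers 1 was detected, Cdh15, and Pax7 lay at 0.400 and 0.410 TPM. The 5 smooth muscle markers summed to 99.3 and 73.2 TPM and the 5 macrophage markers to 4.15 and 4.04 TPM. The part of endothelial, smooth muscle or satellite cells in the levels of the 9 was not tested.

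In mm10, Sox6 (ENSMUSG00000051910.13) lies on chromosome 7 from 115470872 to 116038796 and Six5 (ENSMUSG00000040841.5) on the same chromosome from 19094594 to 19098549. Tbx15 (ENSMUSG00000027868.11) lies on chromosome 3 from 99240381 to 99354259, Eya4 (ENSMUSG00000010461.15) on chromosome 10 from 23102963 to 23350786 and Six4 (ENSMUSG00000034460.9) on chromosome 12 from 73099609 to 73113456. Eya1 (ENSMUSG00000025932.14) and Prox1 (ENSMUSG00000010175.13) lie on chromosome 1, from 14168954 to 14310235 and from 190118035 to 190170714. Nfatc3 (ENSMUSG00000031902.10) lies on chromosome 8 from 106058840 to 106130537, and Nfatc1 (ENSMUSG00000033016.16) on chromosome 18 from 80606205 to 80713071.

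Six5 lies close to a gene of much higher level. Dmpk, the kinase gene of myotonic dystrophy, ends 773 bases before Six5 on the same strand, and it had 102 TPM in replicate 1 and 105 TPM in replicate 2, 116 and 176 times the level of Six5. Its 6839 and 8201 reads stand beside the 72 and 56 reads of Six5, and reads that run past the end of Dmpk were not tested for. Sox6os, which runs antisense inside Sox6, had 51 and 37 reads, and Prox1os had 0 and 1. The other genes that overlap one of the 9 had 3 reads or fewer in each library. The posterior SD of the deposited count was 0 for 9 of 9 regulators in both libraries, against 80.1% of all genes compared.

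The second quantification gave lower TPM for 9 of 9 regulators, as it did for the typical gene, whose median ratio to the first was 0.868. None of the 9 was 1.5-fold apart or more between the quantifications in mean TPM, against 649 of 11118 genes (5.84%). By it, Sox6 had 66.1 and 56.7 TPM, Tbx15 47.8 and 47.7 TPM, Eya4 13.9 and 14.1 TPM, Eya1 7.79 and 7.59 TPM, Six4 6.53 and 6.08 TPM and Six5 0.767 and 0.498 TPM. Of the slow program, Nfatc1 had 13.9 and 12.7 TPM, Nfatc3 10.8 and 7.94 TPM and Prox1 0.731 and 0.734 TPM. The order of the 9 by mean level was the same, and the ratio of fast to slow sums was 5.91 ± 0.410.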

How the data were processed

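Total RNA-seq of 2 gastrocnemius libraries, 1 per animal, was analysed. The deposited expected counts estimate the reads of a gene or transcript without normalization; they and the deposited TPM values, which the authors scaled to a fixed total per library with spike-ins included, come in tables laid out as RSEM writes them (first quantification) and kallisto (second quantification). Deposited percent values say how much of a gene each transcript holds. Credibility bounds of TPM, as deposited, were read as a signal per gene, and the deposited posterior SD of counts as it stands. Genome mm10 and annotation M21 are named in the deposited descriptions, by which the first quantification came from transcriptome alignments and the second directly from reads; which programs made them is not given in the sources used here. Signal tracks and the allele of origin were not analysed here.

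Symbols, reading frames and coordinates came from GENCODE M21, promoters from RefSeq (GRCm38.p6). Eya1, Tbx15 and Nfatc1 have no promoter shown. Counts were rounded for edgeR 4.0.16 in R 4.3.3, scaled by TMM and compared as log2 CPM (prior count 2) over genes with a mean count of 50 or more. The common biological coefficient of variation was 0.124. Counts differed between libraries beyond sampling noise, with a chi-square of 29.2 per degree of freedom over 11125 genes. Counting intervals are 95% intervals from Poisson counts. Alternatives were spike-in scaling, size factors from DESeq2 1.42.0, other prior counts and count minimums, other TPM thresholds, the second quantification, posterior mean TPM, rescaled TPM, protein-coding transcripts only, complete reading frames only (chosen after seeing the data, as was the Sox6 to Tbx15 ratio), other memberships and leaving out each animal. Steps were tested on simulated data. Other steps used SciPy 1.17.1, NumPy 2.4.6 and pandas 2.3.3 in Python 3.11.15.

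The members and gene lists were chosen with earlier results of these data known. Named were all 9 regulators, the 3 highest genes by mean TPM of each other list, every paralog with 1 TPM in either library, and for each regulator the gene most alike in level. Genes named besides these (Sox5, Tbx18, Six3, Six6, Myh7b, Rcan1, Dmpk, the neighbours and the markers) were chosen after their values were seen. Part of the Schwann cell marker list is not reported here.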

Additional observations from a re-analysis of the deposited data

How the results depend on the processing

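The ratio of summed fast to slow regulators, 6.68, changed in size, with 5.91 by the second quantification, 5.93 with protein-coding transcripts only, 4.86 with complete reading frames, 11.6 without Nfatc3 and 1.18 as a ratio of medians (below 1 in replicate 1), and it ranged from 6.16 to 7.19 over the libraries left out in turn. Sox6 over Tbx15, 1.40, became 0.989 ± 0.0861 with protein-coding transcripts, which lies within 1 SD of equal levels. The ratio turned round to 0.622 with complete reading frames, which leave out noncoding transcripts and those with an incomplete frame. With all transcripts it ranged from 1.31 to 1.49 over the libraries left out. The median level of the 9, 11.5 TPM, became 25 TPM when TPM was rescaled over nuclear protein-coding genes, which takes 7SL RNA and all other features out of the total. All 9 were detected with TPM rescaled in this way and at a threshold of 0.5 TPM, and 7 were detected under each other alternative. The median share of the 9 in protein-coding transcripts was 99.6%, and 99.5% by the second quantification. The count of genes 2-fold apart, 154, became 578 with a count minimum of 10 and 2577 with none, and spike-in scaling gave 128 higher in replicate 1 and 55 in replicate 2, against 78 and 76 by TMM. None of the 9 was 2-fold apart under any of these. Single levels moved by more than 1 SD in 9 of 9 genes with rescaled TPM, in 7 of 9 by the second quantification, in 2 of 9 with complete reading frames, in 1 of 9 with protein-coding transcripts and in 1 of 9 with posterior mean TPM. The share of the main transcript moved by more than 1 SD in 7 of 9 genes by the second quantification. The log2 ratio left its counting interval in 6 of 9 genes with spike-in scaling and in 0 of 9 under each other alternative. With 2 libraries of 1 group, an SD is itself poorly known, and Six5 and Prox1 are limited by their few reads. No paired analysis was possible because the libraries form a single group.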
